A study of Rattus norvegicus with 6 samples.

Results

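Molecular chaperones and folding enzymes were examined in rat spinal cord 35 days after a contusion. The 8 genes were chosen with earlier results of these data known. Every probe set annotated by name to exactly 1 of them (Hsph1, Hspa4, Hspa5, Hspa8, Hsp90ab1, Hspd1, Hspe1 and Fkbp2) was taken. Of 8740 probe sets that are not array controls, 17 met this rule, and they cover 7 of the 8 genes. Hspa8, the constitutive cytosolic Hsp70, is not analysed here, since its 2 probe sets are annotated to a second gene as well. Total RNA came from spinal cord at about thoracic segment 8 and was measured on 6 arrays. In 3 samples the tissue was the epicenter of a contusion, a blunt blow to the cord, at day 35, and in 3 it was the same location in uninjured rats. Strain, sex and age are not given in the sources used here, the uninjured titles give no day, and no sham operation is named, so surgery and elapsed time cannot be told apart from the contusion. Whether each array held its own animal is not stated, and p-values here reflect only array-to-array spread, which may be technical.

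Chaperones bind unfolded stretches of other proteins and let go of them in cycles of ATP binding and hydrolysis. In the cytosol, Hsp70 proteins hold the client, J-domain proteins bring it to them, and the Hsp110 proteins Hsph1 and Hspa4 reload Hsp70 with ATP. Hsp90 proteins act later, on kinases, receptors and other near-folded clients. Mitochondria have a folding chamber of Hsp60 (Hspd1) with its lid Hsp10 (Hspe1), and the endoplasmic reticulum (ER) has its own Hsp70, BiP (Hspa5). Fkbp2 encodes FKBP13, a prolyl isomerase of the secretory pathway that binds the drug FK506. Many cytosolic and mitochondrial chaperone genes are induced by heat shock factors through heat shock elements, and Hspa5 by the unfolded protein response through the ER stress element.

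The promoters were read first, because these elements split the genes into classes that the selection by name did not use. RefSeq sequence of the 250 bases before the gene start (build GRCr8) was found for all 7 genes. The heat shock element was searched as 2 units facing each other or away from each other, GAANNTTC or TTCNNGAA, both of which read the same on either strand. Such a match lay in 13.5% of all 33469 promoters in the RefSeq table, and 3 units in phase, which contain 2 overlapping matches of the first kind, lay in 0.663%. The ER stress element, CCAAT and CCACG with 9 bases between them on either strand, lay in 0.0657%. Its parts alone are common, CCAAT in 34% and CCACG in 27.2%. Hsph1 (chr12:10427118-10427367, plus strand), Hspe1 (chr9:64084077-64084326, plus strand) and Hspa5 (chr3:38452766-38453015, plus strand) are shown 5′ to 3′, with heat shock and ER stress elements in capitals, as the members that hold them.
Hsph1: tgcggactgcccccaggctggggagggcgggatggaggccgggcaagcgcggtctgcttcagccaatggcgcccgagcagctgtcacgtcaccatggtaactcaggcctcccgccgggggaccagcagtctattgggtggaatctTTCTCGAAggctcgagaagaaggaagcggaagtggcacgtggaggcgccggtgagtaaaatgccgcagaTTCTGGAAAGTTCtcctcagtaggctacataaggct
Hspe1: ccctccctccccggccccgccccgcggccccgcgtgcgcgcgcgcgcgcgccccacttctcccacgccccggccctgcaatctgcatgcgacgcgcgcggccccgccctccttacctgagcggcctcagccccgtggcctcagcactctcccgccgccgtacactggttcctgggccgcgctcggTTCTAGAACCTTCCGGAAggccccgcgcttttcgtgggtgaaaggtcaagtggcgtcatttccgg
Hspa5: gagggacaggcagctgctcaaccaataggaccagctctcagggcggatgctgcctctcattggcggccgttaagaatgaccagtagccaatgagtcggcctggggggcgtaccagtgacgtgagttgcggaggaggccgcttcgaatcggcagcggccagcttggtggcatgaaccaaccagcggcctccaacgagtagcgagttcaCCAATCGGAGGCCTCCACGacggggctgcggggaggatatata
Hsph1 held a 3-unit heat shock element 24 to 36 bases before its start and a 2-unit match 98 to 105 bases before it. Hspd1 (chr9:64084038-64084287, minus strand) and Hspe1 lie head to head with 290 bases between their starts, so 211 of the 250 bases are common to both windows. The capital stretch of 18 bases in Hspe1, 48 to 65 bases before its start, is the same DNA that lies 225 to 242 bases before the start of Hspd1, and it holds 3 overlapping 2-unit matches. Hspa5 held an ER stress element 25 to 43 bases before its start and 4 matches to CCAAT, 1 of them part of that element. In Hspa4, Hsp90ab1 and Fkbp2 neither element was found in the window. A match describes letters and is not evidence of a bound site.

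**Figure D1:**
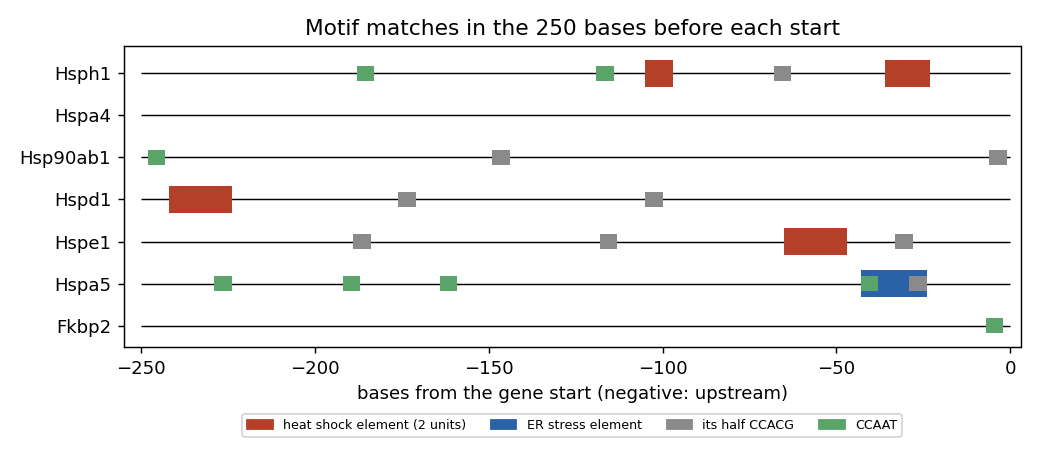
Matches to 4 motifs in the 250 bases before the start of each of the 7 genes (x axis: bases from the gene start; each line is a gene). Heat shock elements appear in Hsph1, Hspd1 and Hspe1 and the ER stress element in Hspa5; Hspa4 shows no match to any of the 4.

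At the contusion site 4 of the 7 chaperone genes fell on at least 1 probe set, and none passed the test for a rise. Over the whole test 541 of 5157 genes fell on at least 1 probe set and 432 rose. That count takes each probe set without a single gene name as its own gene. The 7 genes had 16 tested probe sets and the 5157 had 6705. The 7 thus had more chances per gene to count, so the gene counts are not on equal terms. Transcripts of the Hsp110 gene Hsph1 and of the isomerase gene Fkbp2 fell on both of their probe sets, by 1.65-fold to 2.21-fold. Hspa4 fell on 1 of 2 probe sets and Hsp90ab1 on 1 of 4. No probe set of the mitochondrial pair Hspd1 and Hspe1 or of the ER chaperone Hspa5 passed the threshold, an adjusted p of 0.05 in limma over all probe sets tested. In all, 16 of the 17 probe sets were bright enough to test. Of these, 6 fell and 0 rose, while 9.59% of the 6705 probe sets tested fell, 7.79% rose and 17.4% did either. At an unadjusted limma p of 0.05, 8 of the 16 were lower and 0 higher, against 1090 and 940 of the 6705. All 3 contused arrays lay below all 3 uninjured arrays for 7 of the 16 and above them for 0, against 18.2% and 16.6% of all tested probe sets. The log2 change (contused minus uninjured) was negative for 15 of the 16, with a median of -0.43, beside -0.01 for all tested probe sets. Because the genes were chosen with earlier results of these data known, these shares cannot test whether the set differs from other genes. Without contused array 3 the number that fell was 10 in place of 6, and when dim probe sets were kept in the test it was 1, AF077354_at of Hspa4. Leaving out any single array ended none of the calls of Hsph1, Hspa4 and Fkbp2. In whole tissue, fewer cells of a type and less RNA per cell cannot be told apart.

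**Figure D2:**
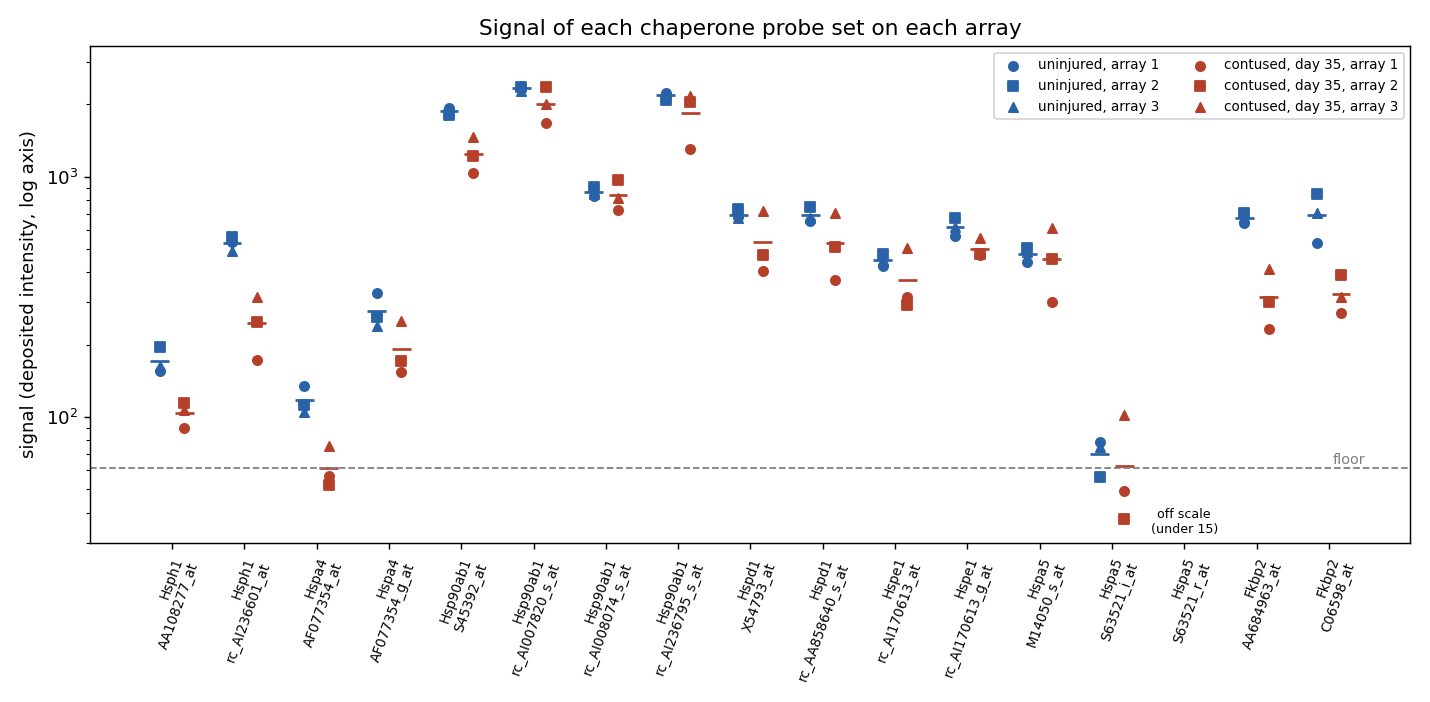
Signal (deposited intensity, log axis) of all 17 probe sets on each of the 6 arrays; blue marks are uninjured and red contused arrays, short bars are group means, and the dashed line is the floor of 61.6. Groups stand apart for both probe sets of Hsph1 and of Fkbp2 and overlap for those of Hspd1; 1 Hspa5 probe set, under 15 on every array, is off the scale.

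Hsph1, the inducible Hsp110, gave the largest change of the set on its probe set rc_AI236601_at. Its signal was 173.3, 247.5 and 315.4 on contused arrays 1, 2 and 3, and 533.2, 561 and 491.3 on uninjured arrays 1, 2 and 3. The groups were well apart, and the brightest contused array stayed below the dimmest uninjured array. The mean fell from 529 ± 35.1 to 245 ± 71.1 (signal, SD, n = 3 arrays), a log2 change of -1.15 (SE 0.20, limma adjusted p = 0.00326). The second probe set, AA108277_at, is dimmer, with 90.2, 114.6 and 107.5 after contusion and 156, 195.1 and 163.7 in uninjured cord. It fell too, by 1.65-fold, from 172 ± 20.7 to 104 ± 12.6 (log2 change -0.72, SE 0.16, limma adjusted p = 0.00989). Neither call held when dim probe sets were kept in the test (adjusted p = 0.056 and 0.0556, with the log2 changes as given).

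Hspa4 encodes the second Hsp110 member, and its 2 probe sets come from the same transcript record. On AF077354_at the contused arrays gave 57, 52 and 75.9 and the uninjured arrays 134.3, 112.7 and 105. Of the contused arrays, 1 and 2 lay below the floor of 61.6, under which signals were set level, so the measured change understates the difference. That change was -0.82 on the log2 scale (SE 0.14, limma adjusted p = 0.00322), and the groups did not overlap. On the brighter AF077354_g_at, contused signals of 153.5, 170.5 and 250.5 stood against 327.6, 260.8 and 239.1. Here contused array 3 lay above uninjured array 3, and the change of -0.55 (95% interval -0.999 to -0.09) did not pass (limma adjusted p = 0.0957). Without contused array 3 it was -0.76 and passed (adjusted p = 0.0153).

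Hsp90ab1, the constitutive cytosolic Hsp90, was read by 4 probe sets, of which 1 fell. On S45392_at the contused arrays gave 1039.3, 1217.3 and 1465.8, all below the uninjured arrays at 1931.6, 1801.4 and 1877.8. The mean fell 1.52-fold, from 1870.3 ± 65.4 to 1241 ± 214 (log2 change -0.61, SE 0.14, limma adjusted p = 0.0123). This call was lost without uninjured array 3 (adjusted p = 0.0514, log2 change -0.60) and when dim probe sets were kept (0.0686). The other three probe sets carry the suffix _s_at, which marks probes shared by related transcripts. Their changes were -0.24 (95% interval -0.53 to 0.06) for rc_AI007820_s_at, -0.28 (-0.67 to 0.11) for rc_AI236795_s_at and -0.05 (-0.35 to 0.25) for rc_AI008074_s_at. On rc_AI236795_s_at contused array 1 stood alone at 1300.1, while contused arrays 2 and 3, at 2039.7 and 2166.6, lay near the uninjured arrays at 2221.4, 2088.3 and 2222.9. The log2 signal of S45392_at minus the mean of the other three was -0.17, -0.45 and -0.06 on the contused and 0.24, 0.13 and 0.21 on the uninjured arrays. That gap of -0.42 had an exact two-sided permutation p of 0.1, the smallest that 3 against 3 arrays allow. The comparison was chosen after the values were seen, so it cannot test whether the probe sets differ.

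The mitochondrial pair, which shares its promoter region, had lower means after contusion on all 4 probe sets, and none passed. For Hspd1 on X54793_at, contused signals were 407.1, 471 and 720.5 and uninjured signals 679.7, 730.6 and 671. Contused arrays 1 and 2 lay below every uninjured array, and contused array 3 lay among them. The probe set rc_AA858640_s_at showed the same layout, with 371.7, 510.3 and 705.5 against 656.7, 745.8 and 673.2. The log2 changes were -0.42 (95% interval -0.85 to 0.01, limma adjusted p = 0.172) and -0.43 (-0.89 to 0.02, adjusted p = 0.186). Hspe1, the lid of the chamber, gave 315.2, 292.9 and 503.7 on rc_AI170613_at, against 426.4, 479.1 and 450.8 in uninjured cord. Again contused array 3 alone was as bright as uninjured cord, and the change was -0.33 (-0.77 to 0.11, limma adjusted p = 0.302). On rc_AI170613_g_at the contused arrays (470.8, 475.3 and 557.7) all lay below the uninjured arrays (565.3, 671.6 and 616.6). The change of -0.30 (-0.60 to -0.003) had an adjusted p of 0.161 in limma. Without contused array 3, Hspd1 passed on both probe sets (log2 changes -0.66 and -0.67, limma adjusted p = 0.00794 and 0.0178), and so did rc_AI170613_at of Hspe1 (-0.57, adjusted p = 0.0183). Other arrays moved these values the opposite way: Hspd1 was at -0.25 and -0.20 without contused array 1 (adjusted p = 0.448 and 0.503), and rc_AI170613_at at -0.18 without contused array 2 (0.644).

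Of the 2 genes of the secretory pathway, Fkbp2 passed the test and Hspa5 did not. Fkbp2 fell on AA684963_at from 642.9, 703.9 and 678.2 in uninjured cord to 232.2, 300.9 and 413.4 after contusion. The groups lay far apart, with a log2 change of -1.14 (SE 0.19, limma adjusted p = 0.00267). On C06598_at the uninjured arrays spread more, at 532, 844.5 and 704.4, and the contused arrays gave 269.8, 389.6 and 314.6. This was a fall of 2.12-fold, from 694 ± 157 to 325 ± 60.5 (log2 change -1.09, SE 0.19, limma adjusted p = 0.00363). Neither call held when dim probe sets were kept (adjusted p = 0.0521 and 0.0582), and that of C06598_at on linear values (adjusted p = 0.052).

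Hspa5, the ER Hsp70 whose promoter holds the ER stress element, showed no call. Its bright probe set M14050_s_at gave 300.2, 455.7 and 613.4 on the contused and 443.3, 506 and 487.4 on the uninjured arrays. The contused arrays lay on either side of the uninjured range, with array 1 below it and array 3 above. The log2 change was -0.13, and its 95% interval, -0.62 to 0.37, does not exclude a fall or a rise of up to those sizes (limma adjusted p = 0.755). The direction turned without contused array 1 (0.14, adjusted p = 0.652). The other two probe sets share 1 record and carry suffixes of relaxed probe design. S63521_i_at lay near the floor (49.2, 37.5 and 101.6 against 78.6, 56.3 and 75; log2 change 0.03), and S63521_r_at, at 11 or less on every array, was not tested. The log2 signal of Fkbp2 minus that of Hspa5 (M14050_s_at) was -0.26, -0.41 and -0.77 on the contused and 0.40, 0.61 and 0.50 on the uninjured arrays, a gap of -0.98. For Hsph1 minus Hspd1 it was -1.64, -1.54 and -1.95 against -1.21, -1.16 and -1.24, a gap of -0.51. The groups did not overlap in either ratio, nor in that of the Hsp90ab1 probe sets. All these ratios set called probe sets against uncalled ones and were chosen after the values were seen. Their separation therefore cannot test whether members changed unequally. For each of these 3 ratios the exact two-sided permutation p was 0.1, the smallest possible, and 0.1 after Benjamini-Hochberg adjustment over the 3.

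**Figure D3:**
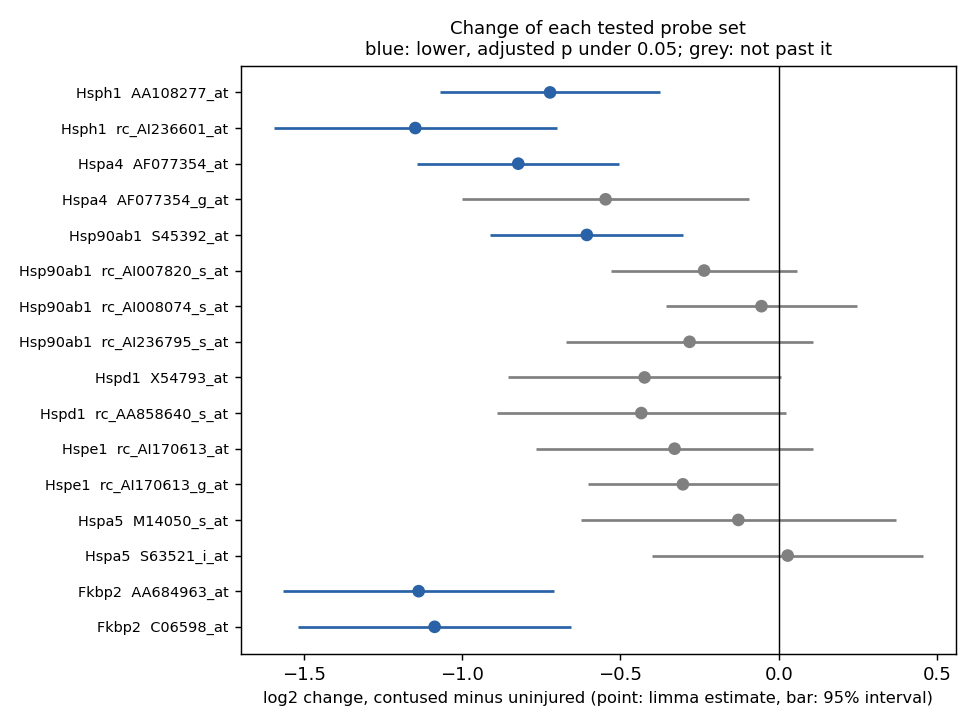
Log2 change (contused minus uninjured) of the 16 tested probe sets, with 95% intervals from limma; blue probe sets fell at an adjusted p under 0.05 and grey did not pass. Both probe sets of Hsph1 and Fkbp2 lie between -0.72 and -1.15, and the intervals of Hspa5 span 0.

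The chaperone probe sets ranked the contused arrays much alike. Contused array 1 was the lowest of the 3 for 13 of 16 tested probe sets and the highest for 0, whereas over all 6705 it was lowest for 40%. Contused array 3 was the highest for 12 of 16, beside 34.3% of all tested probe sets, and the lowest for 0. Set against the uninjured mean, the median of the 16 was -0.80, -0.57 and -0.14 log2 units on contused arrays 1, 2 and 3, while that of all tested probe sets stayed between -0.02 and 0.01. The spread on the log2 scale was larger among contused than among uninjured arrays for 14 of 16 probe sets, and for 55.7% of all. Several of these probe sets share a gene, so they are not independent. The summed signal of the other folding groups, described below, was also lowest on contused array 1, except for cytosolic chaperonin and prefoldin. For J-domain partners it was 3053, 3324 and 4305 on contused arrays 1, 2 and 3, and for chaperonin and prefoldin 763, 738 and 873. Contused array 3 was highest in both and in the Hsp70 and Hsp110 and ER groups, and contused array 2 in the rest. Contused array 1 also had the lowest trimmed mean signal of the 6 arrays (209, the rest 217 to 228). With every array scaled to the same trimmed mean, 6 chaperone probe sets fell, as without scaling.

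**Figure D4:**
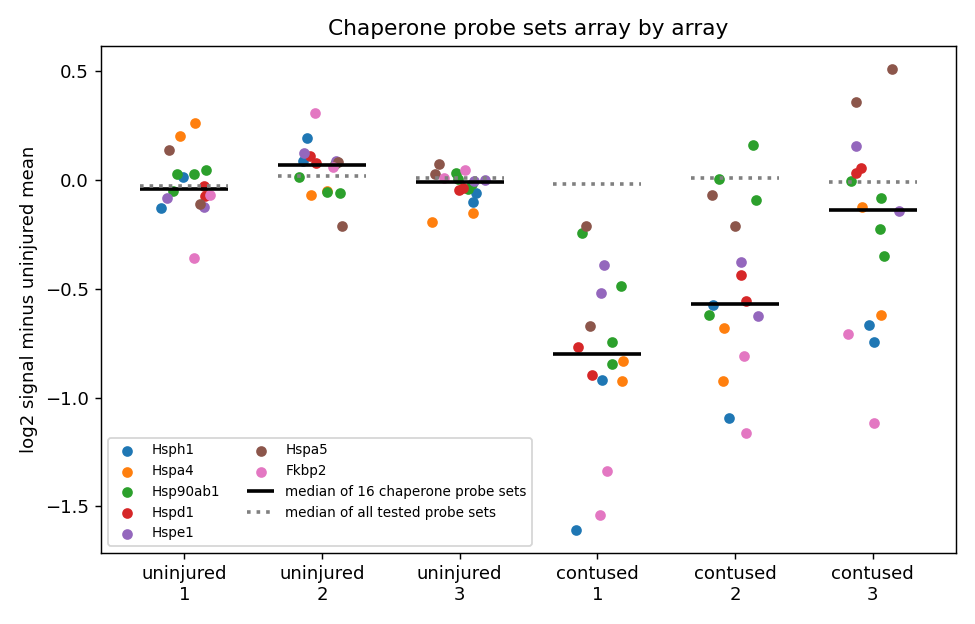
Log2 signal minus the mean of the uninjured arrays for each tested chaperone probe set (points, coloured by gene) on each array, with the median of the 16 (black) and of all tested probe sets (dotted grey). The black bar lies at -0.80 on contused array 1 and at -0.14 on contused array 3, and the dotted bars stay near 0.

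The partners of these chaperones came from a list of 146 further folding genes in 9 groups, of which 63 were on the array and 59 were tested, on 104 probe sets. Of the 104, 12 fell (11.5%) and 7 rose (6.73%), shares near those of all tested probe sets, and the median change was -0.10. Both counts moved with single arrays. Dropping contused array 3 gave 21 lower and 7 higher, dropping contused array 1 gave 6 and 5, and dropping contused array 2 gave 6 and 4. Dropping uninjured array 1 gave 6 lower and 5 higher and dropping uninjured array 3 gave 7 and 3, while dropping uninjured array 2 gave more higher (7) than lower (4). J-domain partners of Hsp70 fell on 5 of 17 probe sets and rose on 0 (median -0.30). Dnaja4 fell on both of its probe sets, from 348 ± 35.6 to 209.8 ± 23.0 on rc_AA799570_at and with a log2 change of -0.55 on AA848268_at (limma adjusted p = 0.048). Dnaja1 fell 1.54-fold on 1 of 2 probe sets, and the other had a log2 change of -0.28 (adjusted p = 0.351). Dnajc5, the cysteine string protein of synaptic vesicles, fell 1.57-fold on 1 of 3, and the others had log2 changes of -0.26 and -0.12 (adjusted p = 0.256 and 0.705). In the group of Hsp70 and Hsp110 relatives and partners 2 of 5 probe sets fell and 0 rose (median -0.06). St13, an adaptor between Hsp70 and Hsp90, fell 1.98-fold on rc_AI171166_at, while its other probe set had a log2 change of -0.06 (adjusted p = 0.869). Hspa13, a Hsp70 relative of microsomes, was 1.67-fold lower; the plot of folding groups counts it under the cytosolic system, where the list had placed it. Of 8 Hsp90-system probe sets 2 fell and 0 rose (median -0.34). Stip1, which hands clients from Hsp70 to Hsp90, fell from 241 ± 16.3 to 143 ± 30.2, and the Hsp90 co-chaperone gene Fkbp4 from 419 ± 19.3 to 272 ± 18.03 on 1 of 3 probe sets. The other Fkbp4 probe sets had log2 changes of -0.42 and -0.13 (adjusted p = 0.0928 and 0.622). The prefoldin subunit gene Pfdn2, which serves the cytosolic chaperonin, fell 2.22-fold, the 1 call among 3 probe sets of that group.

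The group listed as other mitochondrial chaperones gave 0 calls in limma on 6 probe sets, and 0 at an unadjusted p of 0.05 (median -0.25). Its brightest, Clpb, a disaggregase, had a log2 change of -0.17. Dnaja3, a mitochondrial J-domain protein that the list had placed with the J-domain partners, was lower on S81433_at. Its log2 change was -0.54 (limma adjusted p = 0.0343), and its call with arrays left out is not reported here. ER chaperones and oxidoreductases had 4 probe sets higher and 1 lower of 29 (median 0.00). The disulfide isomerase gene P4hb rose 1.53-fold on X02918_at, from 717 ± 99.5 to 1087 ± 30.7, and passed on X02918_g_at (limma adjusted p = 0.0236) and M21476_s_at (0.0423). Erp29, an ER folding factor, rose 1.48-fold on 1 of 2 probe sets, with a log2 change of 0.40 on the other (adjusted p = 0.0866), and the oxidase gene Ero1b fell 1.5-fold. Of 10 prolyl isomerase probe sets 1 fell, that of Ppil3, at 50.1 ± 3.21 against 80.0 ± 7.61, with all contused arrays below the floor. These arrays were set to the same value in the test, so the SD of 3.21 did not enter it. The Ppil3 call (limma adjusted p = 0.0436) was lost in 8 of 11 alternatives. Small heat shock proteins were higher on 3 of 12 probe sets, all of Hspb1, the filament-binding small heat shock protein, which rose 3.29-fold on M86389cds_s_at, from 445 ± 48.9 to 1474 ± 250. The fourth Hspb1 probe set, rc_AA998683_at, had a log2 change of -0.03. Regulators of the heat shock and unfolded protein responses gave 0 calls in limma on 14 probe sets, and 0 at an unadjusted p of 0.05 (median 0.04), with Vcp, an unfoldase, the brightest at -0.05. Leaving out 1 array at a time, 6 fits in all, ended the call in 5 fits for Hspa13, Dnajc5 and AA848268_at of Dnaja4 (all but that without contused array 3) and for M21476_s_at of P4hb (all but that without uninjured array 1). The call of Ero1b was lost without contused array 1 or 2 or uninjured array 1 or 2 (adjusted p up to 0.0854), and that of Dnaja1 without contused array 2 or uninjured array 1 or 2 (up to 0.0835). Erp29 (up to 0.129) and X02918_g_at of P4hb (up to 0.108) lost theirs without contused array 1 or 2 or uninjured array 1 or 3. Ppil3 lost its call without any 1 contused array (up to 0.121) and was too dim to test without an uninjured one, X02918_at of P4hb without uninjured array 3 (0.0591) and Stip1 without uninjured array 2 (0.0507). The calls of rc_AI171166_at of St13, rc_AA799570_at of Dnaja4, rc_AI231547_at of Fkbp4, Pfdn2 and the 3 Hspb1 probe sets held with any 1 array left out, and that of St13 was lost when dim probe sets were kept (adjusted p = 0.0815).

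**Figure D5:**
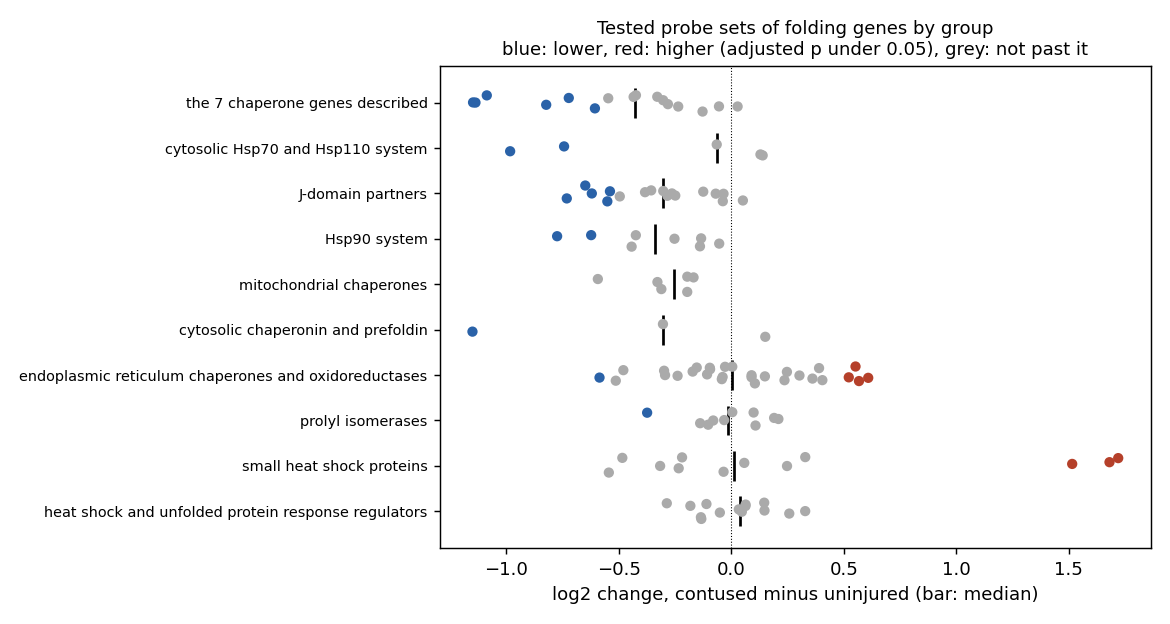
Log2 change of every tested probe set of the 7 chaperone genes (top row) and of 9 groups of other folding genes; blue fell and red rose at an adjusted p under 0.05, grey did not pass, and the black bar is the median. The J-domain group holds 5 of the 12 falls outside the top row, and the rightmost points, up to 1.72, are Hspb1.

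Markers of cell types changed between the same arrays. Of 26 tested neuron marker probe sets 22 were lower after contusion and 0 higher, and their summed signal was 14159 to 15852 on contused and 30398 to 35257 on uninjured arrays, with 1 of 16 genes, Syt1, at or below the floor throughout. Within the contused group that sum was 14165, 14159 and 15852 on arrays 1, 2 and 3. Of 17 microglia and macrophage marker probe sets 13 were higher and 0 lower (sums of 10894 to 11454 against 4032 to 4538). Oligodendrocyte markers were lower on 11 of 16 (21084 to 22250 against 27666 to 29092), and markers of meninges and fibroblasts higher on 11 of 24 (16080 to 21241 against 6878 to 14341). Astrocyte markers gave 2 of 17 higher and 0 lower (20300 to 21784 against 20668 to 21402). Endothelial and Schwann cell markers gave 0 calls in limma on 4 and 6 probe sets (0 and 2 at an unadjusted p of 0.05). Of 8 T and B cell probe sets 1 was higher, that of Cd4 (log2 change 0.97, limma adjusted p = 0.00259), and 0 were lower. The change was negative for 5 of the 8, and Cd3g did not exceed the floor on any array. The part of these shifts in the chaperone changes was not tested. The ratio of 3′ to 5′ signal of the GAPDH control, a measure of RNA integrity, was 1.08 to 1.12 on contused and 1.13 to 1.17 on uninjured arrays. That of beta-actin ranged from 1.11 to 1.24 after contusion and from 1.03 to 1.28 without it. The beta-actin ranges overlapped and the GAPDH ranges did not.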

How the data were processed

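Total RNA of 3 contused and 3 uninjured rat spinal cord samples was measured on one-colour oligonucleotide arrays, grouped by sample title. The authors deposited 1 intensity per probe set and array on a linear scale; between 21 and 32 values per array lie below 0. Probe summary, background and scaling are not given in the sources used here. Medians ran from 122 to 127 and trimmed means (2% at each end) from 209 to 228, so no further scaling was applied. Columns of other samples numbered 0. Genes were named from the array's annotation, updated through gene identifiers to GRCr8 symbols; members used the annotated symbol. Values under the pooled 25th percentile (61.6) were set to it and taken to log2, on which fold changes near the floor are understated. The spread between arrays is understated there too. Probe sets above it on at least 3 of 6 arrays went into the test (6705 in all), run in R 4.3.3 with limma 3.58.1 (lmFit, eBayes with an intensity trend, two-sided, 4 residual degrees of freedom), with Benjamini-Hochberg adjustment over all of them. The procedure was run on simulated data with independent noise and log2 changes of size 1 planted in brighter probe sets. Shifts shared by many probe sets of an array, smaller changes and dim probe sets were not covered by it. The outcome of that run is not reported here. The 3 ratios between probe sets used exact permutation (SciPy 1.17.1), chosen after values were seen. The number of arrays limits the precision. Members and lists were chosen with earlier results of these data known. All member probe sets are named, and per folding group up to 3 called probe sets in each direction with the smallest p, or the brightest where none passed. Dnaja3 and further probe sets of the named folding genes were added after their values were seen. Alternatives covered the floor, the filter, normalization, the variance model, linear values, a replicate block and leaving out each array.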

Additional observations from a re-analysis of the deposited data

How the results depend on the processing

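The number of chaperone probe sets that fell, 6, was 1 when dim probe sets were kept, 5 to 10 with 1 array left out (10 without contused array 3), and 5 or 6 under the other alternatives. Of 249 recomputed values for the 16 tested chaperone probe sets, 232 kept their direction and side of the threshold, 7 lost the call, 4 gained it (all without contused array 3) and 6 turned direction. The 6 belong to uncalled probe sets. The log2 change of rc_AI008074_s_at of Hsp90ab1 was 0.06 with quantile normalization and -0.16 to 0.04 with 1 array left out, and that of M14050_s_at of Hspa5 -0.37 to 0.14. That of S63521_i_at was -0.27 with the floor at the 10th percentile, -0.13 with no floor and -0.07 to 0.15 with 1 array left out. Vcp turned to 0.09 with quantile normalization and ran from -0.13 to 0.04 with 1 array left out. With dim probe sets kept, 662 of 8740 probe sets passed in place of 1165 of 6705, and 8 of the folding list in place of 19; more and dimmer probe sets were tested then, and the cause was not tested further. Leaving out 1 array gave 659 (without uninjured array 3) to 1241 over all probe sets and 10 to 28 in the folding list. Correlations of same-numbered deviations were 0.042, 0.22 and -0.24, within the range of -0.27 to 0.27 for differently numbered arrays. With so few arrays these values cannot settle whether the replicate numbers mark pairs. With a replicate block 6 chaperone probe sets, 17 of the folding list and 1200 over all passed. Signal near the floor limits Hspa4 and the dim Hspa5 probe sets.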
